A study of Mus musculus with 6 samples.

Results

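The NRF2 and glutathione antioxidant genes described here were 10 protein-coding genes picked by symbol: Nfe2l2, Nqo1, Hmox1, Gpx3, Gstm1, Gstm2, Txnrd1, Gclc, Gclm and Srxn1. All 10 were present among the 27179 genes of the count table, and all 10 were among the 14855 genes that passed a filter on low counts and were tested. Their expression was measured by bulk RNA sequencing in cancer-associated fibroblasts (CAFs) from 3 mammary tumors of raGFP-Wnt1 mice. From each tumor, GFP-positive cells were separated by flow cytometry into a CD34 negative and a CD34 positive fraction, giving 6 libraries, 3 per group. CD34 is a surface glycoprotein found on many mesenchymal and blood progenitor cells. Both groups carried the MMTV-Wnt1 transgene, in which the mouse mammary tumor virus promoter drives Wnt1 in mammary epithelium, and the Pdgfra H2B-GFP reporter, which labels nuclei of cells that use the Pdgfra promoter. Neither group was treated, and fibroblasts without Pdgfra activity were not sampled. Tissue came from female mice whose age at collection was not given in the sources used here. The labels separate the libraries by tumor and do not say whether each tumor came from its own mouse, so p-values measure the spread between these tumors.

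NRF2, the protein made from Nfe2l2, is a transcription factor that the adaptor KEAP1 keeps low by feeding it to the proteasome. Oxidants and electrophiles modify KEAP1, and NRF2 then accumulates, pairs with a small MAF protein and binds antioxidant response elements near genes for glutathione synthesis, conjugation and thiol repair. Much of this control is exerted on the NRF2 protein, which RNA sequencing does not measure. Glutathione is a tripeptide thiol that reduces peroxides through peroxidases and is attached to electrophiles by glutathione S-transferases.

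The core of the antioxidant response element was searched as TGACNNNGC on both strands, in windows from 250 bases before to 50 bases after RefSeq start sites (build GRCm38.p6). Windows were given for 8 of the 10 genes, and 4 of these 8 held a match, beside 14% of the 27025 genes with a window. The matches are shown to give the places where the searched core occurs near these start sites. Matched letters are in capitals, 5′ to 3′ on the strand of the match.
Nfe2l2 (chr2:75704885-75704913, minus strand): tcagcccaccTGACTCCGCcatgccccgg
Txnrd1 (chr10:82859104-82859132, minus strand): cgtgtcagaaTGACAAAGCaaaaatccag
Gclm (chr3:122245413-122245441, minus strand): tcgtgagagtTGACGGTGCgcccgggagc
Srxn1 (chr2:152105542-152105570, minus strand): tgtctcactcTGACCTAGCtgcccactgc
A match is a description of letters, not evidence of binding. The windows of Nqo1, Gpx3, Gstm1 and Gstm2 held no match, and Hmox1 and Gclc were not searched. Elements outside the windows were not searched for any gene.

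Library totals ranged from 16238059 to 86609267 counts, and the 10 genes together took 0.166% to 0.245% of them. Values are given as CPM, counts scaled to the size of the library. Cd34 itself averaged 74.3 ± 30.2 CPM (SD, n = 3) in the CD34 negative group and 948 ± 571 CPM (SD, n = 3) in the other, and every CD34 negative library lay below every CD34 positive library. Fibroblast markers summed to between 70529 and 97039 CPM in the 6 libraries, with Col1a1, Col1a2 and Col3a1 the most abundant of the 10. With the tumor as a block, limma-voom called 4 of these 10, against 8.57% of all tested genes: Pdgfrb higher in CD34 negative CAFs, and Dcn, Lum and Fap lower. Macrophage and leukocyte markers summed to 12.9 to 19.9 CPM in the negative and 8.99 to 18.1 CPM in the positive group, with Ptprc, Cd68, C1qb and C1qc among 8 of 13 markers at 0 in at least 1 library. Summed markers of pericytes were 201 to 242 against 87.1 to 188 CPM, with no overlap, but the markers went in both directions. With the tumor as a block, limma-voom called 4 of the 7 tested higher in CD34 negative CAFs and 2 lower (Abcc9 and Kcnj8). That is 85.7% of those tested, against 8.57% of all genes. Markers higher in every CD34 negative library included Cspg4 (84.5 to 129 against 12.9 to 44.0 CPM), Notch3 (51.8 to 56.0 against 10.1 to 31.9) and Mcam (34.6 to 45.6 against 3.99 to 16.4). Summed markers of endothelial cells were 11.7 to 34.6 against 56.0 to 128 CPM, a gap that came from Tek (5.61 to 12.6 against 48.1 to 120.5 CPM). The other 7 summed to 6.09 to 22.0 against 7.57 to 28.6 CPM, which overlapped, and 5 of the 7 endothelial markers tested had a log2 fold change above 0. Of the 8 endothelial markers, 4 (Cdh5, Emcn, Cldn5 and Tie1) were at 0 in at least 1 library. Epithelial markers summed to 184, 169.9 and 66.9 CPM in the CD34 negative fractions of tumors 1, 2 and 3 and to 162, 109 and 23.9 CPM in the CD34 positive fractions, so they were higher in the CD34 negative fraction of every tumor. All 10 epithelial markers had a log2 fold change above 0 (median 0.90), and 0 passed with or without the block. The sums ran for adipocyte markers from 12.7 to 25.9 against 18.8 to 49.0 CPM, and for erythrocyte markers from 0.821 to 8.27 against 0.554 to 1.36 CPM. The part of any of these cell types in the differences below was not tested. In bulk libraries, fewer cells that express a gene and less RNA of that gene per cell cannot be told apart. The library of CD34 negative tumor 3 had the fewest detected genes (14314, beside 16253 to 19220 in the others) and stood apart on the first principal component.

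Of the 10 genes, Gstm1 was the most different between the fractions: it was 2.07-fold lower in CD34 negative CAFs, and its values did not overlap. The other 9 genes had log2 fold changes between -0.42 and 0.58, where positive values mean higher in CD34 negative CAFs. The log2 fold change was above 0 for 6 of the 10 genes, against 47.7% of all 14855 genes tested, and its median was 0.12, beside -0.03 for all. Without a term for the tumor, limma-voom called 0 of the 10 genes at an adjusted p under 0.05, against a background of 0.121% of tested genes. At an unadjusted p under 0.05 it called 1, Gstm1, against 14.3%. The edgeR quasi-likelihood test also called 0 (background 0.0606%), and DESeq2 called 1, again Gstm1 (background 5.45%). With the tumor as a block, which compares the fractions within each tumor, limma-voom called 1 of the 10 genes, Gstm1, against a background of 8.57% in either direction and 4.25% lower in CD34 negative CAFs. A single call among 10 genes is a share near that background. With the block, edgeR and DESeq2 also called Gstm1 alone, against 3.87% and 12.6% of the genes they tested.

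**Figure D1:**
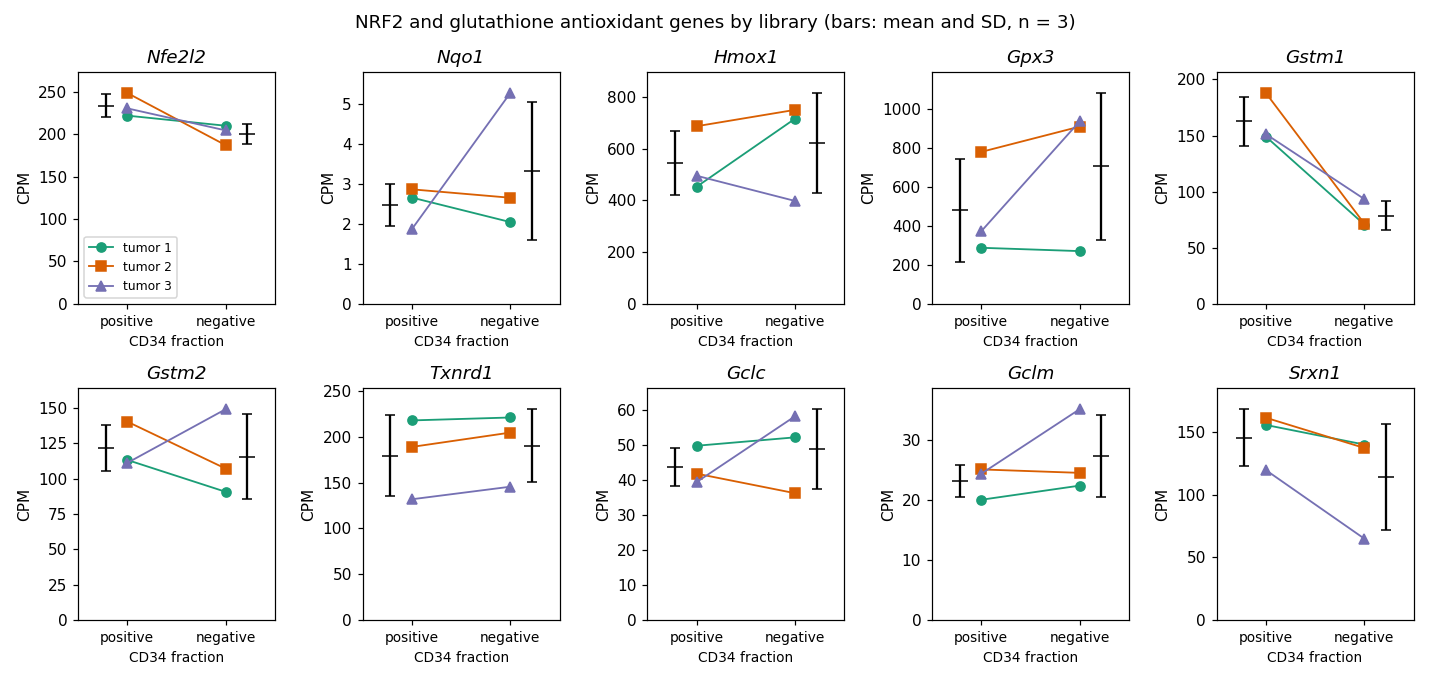
Expression in CPM (linear axis from 0) of each of the 10 genes in the CD34 positive and CD34 negative CAFs, with a line joining the fractions of each tumor and bars for the mean and SD (n = 3). Gstm1 fell in all 3 tumors, from 149 to 188 CPM down to 70.7 to 93.4 CPM, while Nqo1, Gpx3, Gstm2, Gclc and Gclm each had their highest value in the CD34 negative library of tumor 3.

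How firmly a change can be set aside differed from gene to gene. In the fit without the block, the 95% interval of the log2 fold change lay within ±1 for 6 of the 10 genes, and with the block for 7. The intervals of Gpx3, Nqo1, Srxn1 and Gstm1 reached past 1 in size without the block. For Nfe2l2, Hmox1, Gstm2, Txnrd1, Gclc and Gclm, a change of 2-fold or more in either direction therefore lay outside the interval.

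**Figure D2:**
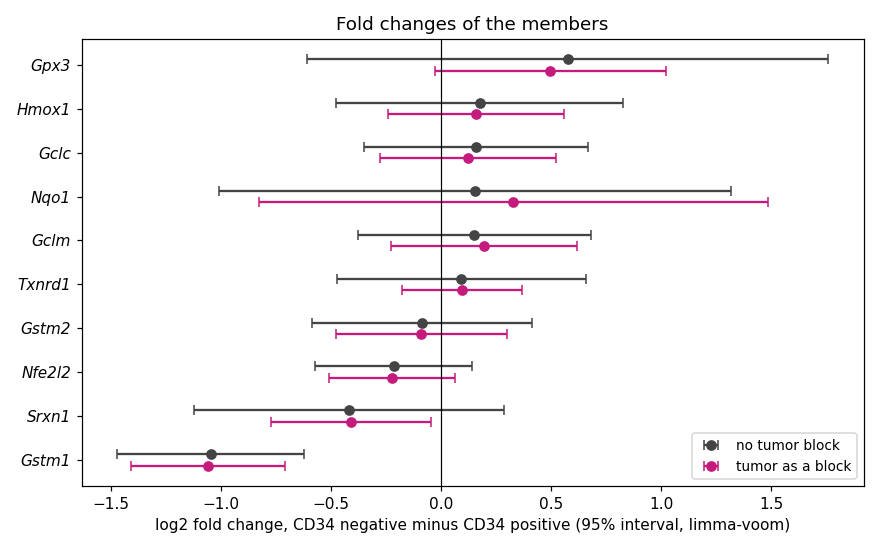
Log2 fold change (CD34 negative minus CD34 positive) of the 10 genes with 95% intervals from limma-voom, without the tumor block (grey) and with it (pink). Without the block Gstm1 is the only gene whose interval stays clear of 0; with it Srxn1, from -0.77 to -0.05, does so too.

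The 10 genes covered a wide range of levels. Per kilobase of transcript, Gpx3 (390 CPM per kb) and Hmox1 (370 CPM per kb) had the highest mean levels over the 6 libraries, above 98.9% of tested genes in both cases. Gpx3 was above Hmox1 in only 3 of the 6 libraries, so their order was not settled by these data. Gstm2 followed at 113, Gstm1 at 93.3 and Nfe2l2 at 87.9 CPM per kb, and each of these was above the next in the order in 3, 3 and 6 libraries. Srxn1 (50.3 CPM per kb) was above Txnrd1 (46.0 CPM per kb) in 4 libraries, and Gclm (17.1 CPM per kb) was above Gclc (13.5 CPM per kb) in 4. The length given for Gclm was 1470 bases, while its longest GENCODE transcript has 5589, so the place of Gclm in this order depends on that length. Nqo1 was last in every library, with a mean of 1.87 CPM per kb that lay above only 28.7% of tested genes.

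Nfe2l2 (NCBI gene 18024, chr2:75675513-75704663 in GRCm38.p6) encodes NRF2 and was expressed at a similar level in every library. Its values were 210, 187 and 204 CPM in CD34 negative CAFs of tumors 1, 2 and 3, and 222, 248 and 230.3 CPM in CD34 positive CAFs. All 3 CD34 negative values lay below all 3 CD34 positive values, but the gap was small. The means were 200.4 ± 12.0 and 234 ± 13.6 CPM (SD, n = 3 each), a log2 fold change of -0.22 ± 0.16 (SE), which did not pass the test (adjusted p = 0.567 by limma-voom, and 0.349 with the tumor block). Nfe2l2 and Gstm1 were the 2 of the 10 genes whose groups did not overlap, against a background of 20.4% of all tested genes (10% with every CD34 positive library above every CD34 negative one).

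Glutathione S-transferases of the mu class attach glutathione to electrophiles, and 2 of the 10 genes, Gstm1 and Gstm2, encode them. They lie near each other on the minus strand of chromosome 3, Gstm1 (NCBI gene 14862) at chr3:108012250-108017973 and Gstm2 (NCBI gene 14863) at chr3:107981702-107986420. Gstm1 measured 70.7, 71.5 and 93.4 CPM in CD34 negative CAFs of tumors 1, 2 and 3, and 149, 188 and 151 CPM in CD34 positive CAFs. Every CD34 negative library was below every CD34 positive one. The means were 78.5 ± 12.9 and 163 ± 21.8 CPM (SD, n = 3 each), and the log2 ratios within tumors were -1.08, -1.39 and -0.70.

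The log2 fold change of Gstm1 was -1.05 ± 0.19 (SE), with a 95% interval from -1.47 to -0.62. It missed the threshold without the block (adjusted p = 0.0735 by limma-voom), where it ranked 80 of 14855 genes by p. With the tumor block it fell by 1.06 ± 0.16 on the log2 scale and passed (adjusted p = 0.00434). The blocked call remained when any tumor was left out, with log2 fold changes of -1.05, -0.89 and -1.25 without tumors 1, 2 and 3. Without the block, leaving out single libraries or tumors gave adjusted p between 0.0859 and 0.389.

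Gstm2 had a log2 fold change closer to none than that of nearby Gstm1. It measured 90.8, 107 and 149 CPM in CD34 negative CAFs and 113, 140.5 and 111 CPM in CD34 positive CAFs of tumors 1, 2 and 3. The groups overlapped, with the highest value of all in CD34 negative CAFs of tumor 3. The log2 fold change was -0.09 ± 0.22, with an interval from -0.59 to 0.41 (adjusted p = 0.889 by limma-voom, and 0.824 with the block), and its sign changed when tumor 1 or tumor 2 was left out (0.02 and 0.05).

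The relation between the genes was followed within each library as the share of Gstm1 in the counts of Gstm1 and Gstm2, a measure chosen after the values had been seen. Gstm1 took 43.8%, 40.0% and 38.5% of these counts in CD34 negative CAFs of tumors 1, 2 and 3, and 56.8%, 57.2% and 57.6% in CD34 positive CAFs. The 3 CD34 positive values lay within 1 percentage point of each other, and every one was above every CD34 negative value. The means were 40.8 ± 2.72% and 57.2 ± 0.412% (SD, n = 3 each). The mean log2 count ratio of Gstm1 to Gstm2 differed by -0.96, given as a description. An exact permutation test gave p = 0.1, the smallest value it can give with 3 libraries per group, so it cannot decide. It also shuffled the libraries without regard to tumor, and the separation of the groups was known beforehand.

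**Figure D3:**
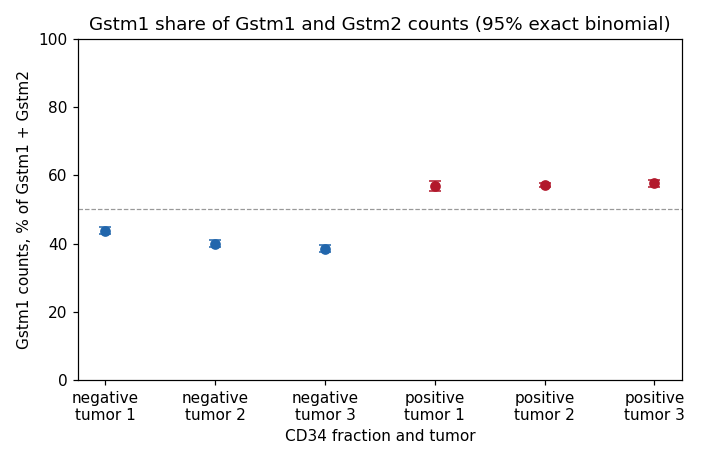
Share of Gstm1 (percent of the counts of Gstm1 plus Gstm2) in each of the 6 libraries, with exact binomial (Clopper-Pearson) 95% intervals that cover counting error only. CD34 negative libraries (blue) lie between 38.5% and 43.8% and CD34 positive libraries (red) between 56.8% and 57.6%, on either side of the dashed line at equal counts.

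Reads can be split between mu-class genes because their sequences are alike. Of all 50-base words in the Gstm1 transcript, 23.1% were also found in transcripts of other genes, mostly Gstm2-ps1 (17.3%) and Gstm3 (10%), and only 0.887% were shared with Gstm2. For Gstm2 the shared portion was 9.36%. How the counting treated reads with several matches was not stated, so the level of Gstm1 carries that uncertainty. Gstm3 held 41 counts over all libraries, beside 33353 for Gstm1. Gstm2-ps1, with the larger share, was not among the genes counted, so its part in the Gstm1 counts could not be followed. When the 7 genes Gstm1 to Gstm7 were summed, the log2 fold change was -0.50 ± 0.18 without the block and -0.52 with it, the latter chosen after seeing the data, and neither passed (adjusted p = 0.276 and 0.0615 by limma-voom). Among the other mu-class genes tested, Gstm4 (-0.70), Gstm5 (-0.17), Gstm6 (-0.02) and Gstm7 (-2.65 ± 1.44) did not pass with or without the block.

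The 250 bases before the start sites of these genes are printed because the genes lie near each other and their estimated changes were unlike. Both are from RefSeq, build GRCm38.p6, minus strand, 5′ to 3′ toward the gene. Gstm1 had windows at 2 start sites, and the bases printed precede the site farther upstream.
Gstm1 upstream (chr3:108017974-108018223): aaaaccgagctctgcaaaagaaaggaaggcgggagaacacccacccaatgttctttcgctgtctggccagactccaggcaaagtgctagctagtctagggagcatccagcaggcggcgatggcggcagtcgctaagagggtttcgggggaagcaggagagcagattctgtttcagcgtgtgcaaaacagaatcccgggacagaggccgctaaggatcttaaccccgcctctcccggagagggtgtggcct
Gstm2 upstream (chr3:107986421-107986670): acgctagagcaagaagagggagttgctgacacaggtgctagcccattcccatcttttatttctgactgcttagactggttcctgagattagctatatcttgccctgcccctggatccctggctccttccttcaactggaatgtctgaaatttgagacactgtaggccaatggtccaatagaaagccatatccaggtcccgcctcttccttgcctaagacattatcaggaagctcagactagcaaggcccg
In a global alignment of these stretches 129 bases (51.6%) were identical, and the G and C content was 57.6% for Gstm1 and 49.6% for Gstm2. The other Gstm1 start site was not aligned, and no identity level for unrelated sequences was computed. Nothing was drawn from these letters about the factors that bind there.

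Gclc and Gclm encode the catalytic and the modifier subunit of glutamate-cysteine ligase, the rate-limiting enzyme of glutathione synthesis. Gclc (NCBI gene 14629, chr9:77754535-77794489) measured 52.2, 36.2 and 58.2 CPM in CD34 negative CAFs of tumors 1, 2 and 3 and 49.8, 41.8 and 39.4 CPM in CD34 positive CAFs. Gclm (NCBI gene 14630, chr3:122245487-122267215) measured 22.3, 24.5 and 35.0 CPM against 20.0, 25.0 and 24.3 CPM. For both subunits the groups overlapped, and the highest of the 6 values was that of CD34 negative tumor 3. Their log2 fold changes were nearly equal, 0.16 ± 0.22 for Gclc (interval -0.35 to 0.67, adjusted p = 0.779 by limma-voom) and 0.15 ± 0.23 for Gclm (interval -0.38 to 0.68, adjusted p = 0.805). Neither passed with the block (adjusted p = 0.755 and 0.607), and without tumor 3 they came to -0.06 and -0.01.

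Gpx3 encodes the secreted, selenium-containing glutathione peroxidase found in plasma and extracellular fluid. Gpx3 (NCBI gene 14778, chr11:54902854-54910387) measured 271, 911 and 938 CPM in CD34 negative CAFs of tumors 1, 2 and 3 and 288, 781 and 373 CPM in CD34 positive CAFs. Values ran low in both fractions of tumor 1 and high in both fractions of tumor 2, and the fractions parted mainly in tumor 3. The log2 ratios within tumors were -0.09, 0.22 and 1.33.

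Over all 3 tumors the log2 fold change of Gpx3 was 0.58 ± 0.52, with an interval from -0.61 to 1.76 (adjusted p = 0.651 by limma-voom, and 0.245 with the block). It was 1.12 without the CD34 negative library of tumor 1 and 0.17 without tumor 3 (0.05 with the block), and with the block it passed the test only when tumor 1 was left out (0.78, adjusted p = 0.0161).

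Hmox1 encodes heme oxygenase 1, which breaks heme into biliverdin, iron and carbon monoxide. Hmox1 (NCBI gene 15368, chr8:75093618-75100593) measured 716, 751 and 398 CPM in CD34 negative CAFs and 453, 687 and 496 CPM in CD34 positive CAFs of tumors 1, 2 and 3. The CD34 negative group held both the highest and the lowest of the 6 values. Its log2 fold change was 0.18 ± 0.29 (interval -0.48 to 0.83, adjusted p = 0.818 by limma-voom, and 0.667 with the block), and it was -0.08 without tumor 1.

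Nqo1 encodes a quinone reductase that is widely used as a readout of NRF2 activity. In these CAFs Nqo1 (NCBI gene 18104, chr8:107388225-107403205) was barely expressed, with 43 to 245 counts per library. In tumors 1, 2 and 3 it measured 2.05, 2.66 and 5.28 CPM in the CD34 negative fraction and 2.66, 2.87 and 1.87 CPM in the CD34 positive fraction. Only the CD34 negative library of tumor 3 stood out, with an exact Poisson interval of 4.56 to 6.08 CPM that covers counting error only. The log2 fold change of 0.16 ± 0.51 had an interval from -1.01 to 1.32 (adjusted p = 0.918 by limma-voom, and 0.772 with the block), so that a change of 2-fold in either direction could not be told from none, and without that library it was -0.14.

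Txnrd1 encodes the cytosolic thioredoxin reductase, which hands electrons from NADPH to thioredoxin. Txnrd1 (NCBI gene 50493, chr10:82833951-82897724) measured 221, 205 and 146 CPM in CD34 negative CAFs and 218, 189 and 132 CPM in CD34 positive CAFs of tumors 1, 2 and 3. The fractions of a tumor lay close together, and the tumors kept the same order in both fractions. The log2 fold change was 0.09 ± 0.25, with an interval from -0.47 to 0.66 (adjusted p = 0.898 by limma-voom, and 0.717 with the block). The log2 ratios within tumors were 0.02, 0.11 and 0.14, all above 0. Eid3 overlaps Txnrd1 in the annotation and held 960 counts, beside 50346 for Txnrd1. Gm38560, on the opposite strand, also overlaps Txnrd1, and Gm46822 and Gm6061 overlap Gclm. No counts were available for these further genes.

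Srxn1 encodes sulfiredoxin, which repairs over-oxidized peroxiredoxins. Srxn1 (NCBI gene 76650, chr2:152105524-152111376) measured 140.1, 137 and 65.0 CPM in CD34 negative CAFs and 156, 162 and 119.8 CPM in CD34 positive CAFs of tumors 1, 2 and 3. The CD34 negative value was the lower within every tumor, and CD34 positive tumor 3 was the only CD34 positive library below any CD34 negative one. The log2 fold change was -0.42 ± 0.31 (interval -1.12 to 0.29, adjusted p = 0.576 by limma-voom). With the block it was -0.41 ± 0.16, and it did not pass after adjustment (adjusted p = 0.163). Much of the difference rested on tumor 3: without the CD34 negative library of tumor 3 the log2 fold change was -0.047, and without tumor 3 it was -0.20 (-0.21 with the block).

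Within tumors, 4 of the 10 genes kept one sign in all 3 tumors, against a background of 46.3% of tested genes. Nfe2l2, Gstm1 and Srxn1 were lower in the CD34 negative fraction each time (background 23.4%), and Txnrd1 was higher (background 22.8%). The median log2 ratio of the 10 genes was 0.28 in tumor 3, -0.08 in tumor 1 and -0.16 in tumor 2. The CD34 negative library of tumor 3 was the highest of the 6 for 5 genes (Nqo1, Gpx3, Gstm2, Gclc and Gclm) and the lowest for 2 (Hmox1 and Srxn1). Without tumor 3 the median log2 fold change of the 10 genes was -0.13. That library also had the fewest detected genes, and the part of this in the values was not tested.

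**Figure D4:**
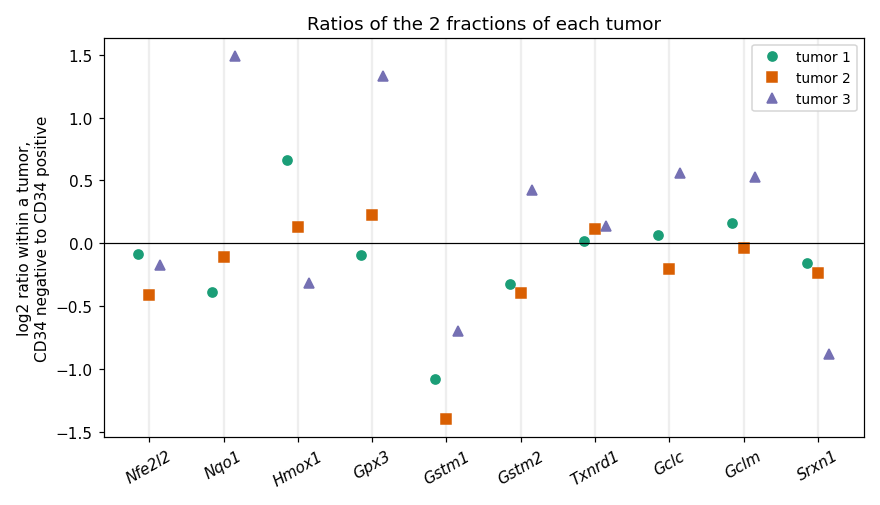
Log2 ratio of the CD34 negative to the CD34 positive fraction within each of the 3 tumors for the 10 genes; points above 0 are higher in the CD34 negative fraction. Gstm1 lies between -1.39 and -0.70 in all 3 tumors, whereas for Nqo1 and Gpx3 tumor 3 lies far above the other tumors, at 1.49 and 1.33.

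The wider pathway was read from 10 further lists. Some covered regulators of NRF2, its other known targets, glutathione metabolism, glutathione S-transferases and glutathione peroxidases. Others covered thioredoxin and peroxiredoxin genes, superoxide dismutases and catalase, selenoproteins and selenium supply, heme and iron handling, and superoxide-producing oxidases. The 10 lists together held 145 distinct genes, of which 129 were tested. Of these 129, 46 had a log2 fold change above 0 and 83 below, beside 7081 above and 7774 below among all tested genes. The median was -0.11, beside -0.03 for all tested genes. Without the block limma-voom called 0 of the 129 (background 0.121%), with 20 at an unadjusted p under 0.05 (background 14.3%). Also without the block, edgeR called 0 (background 0.0606%) and DESeq2 called 8 (background 5.45%). These shares were near the backgrounds. With the block limma-voom called 15 of 129, or 11.6%, against the background of 8.57%. The 15 went in both directions, 7 higher and 8 lower in CD34 negative CAFs, where 4.32% of all tested genes were higher and 4.25% lower.

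Among the regulators of NRF2, Mafk and Sqstm1 were higher in CD34 negative CAFs in the blocked fit, out of 14 genes tested. Mafk encodes a small MAF partner of NRF2, and had a log2 fold change of 0.77 (adjusted p = 0.00800 by limma-voom with the block). Sqstm1 encodes p62, the autophagy receptor that draws KEAP1 away from NRF2. It averaged 1492 ± 278 against 995 ± 251 CPM, a log2 fold change of 0.60 (adjusted p = 0.0176), and lost the call without tumor 2.

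Of 23 other known NRF2 targets tested, 4 were called, with 2 in each direction. Slc48a1, a heme transporter also counted among the 13 heme and iron genes, was higher, at 103 ± 4.84 against 47.2 ± 9.43 CPM (log2 fold change 1.13, adjusted p = 0.00366 by limma-voom with the block). Ephx1, which encodes the microsomal epoxide hydrolase, was higher by 0.84 on the log2 scale. Ugdh, which makes UDP-glucuronate, was lower, at 214 ± 63.0 against 636 ± 92.6 CPM (log2 fold change -1.61, adjusted p = 0.00279). Slc7a11, the cystine importer that feeds glutathione synthesis, was lower at a low level (6.96 ± 5.22 against 14.2 ± 9.98 CPM, log2 fold change -1.06) and lost the call without tumor 1 or tumor 2.

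In glutathione metabolism 2 of 16 genes tested were called, Slc7a11 and Ggt5, and both were lower. Ggt5 encodes a gamma-glutamyl transferase family member that acts on leukotriene C4, and its log2 fold change was -1.35. Among 17 glutathione S-transferases tested, only Mgst1, a microsomal enzyme, was called (-0.57), and its call was lost without tumor 2. No glutathione peroxidase of the 4 tested was called, and the most abundant, Gpx8 (-0.27) and Gpx1 (0.28), lay on either side of 0.

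Of 18 thioredoxin, peroxiredoxin and sestrin genes, Sesn2 and Msrb3 were higher and Txn1 was lower. Sesn2, a stress-induced sestrin, averaged 30.8 ± 9.06 against 9.93 ± 1.69 CPM (log2 fold change 1.53, adjusted p = 0.00393 by limma-voom with the block). Txn1 encodes the thioredoxin that Txnrd1 reduces, and averaged 105 ± 20.6 against 183 ± 32.8 CPM (log2 fold change -0.80, adjusted p = 0.00520), while Txnrd1 itself did not pass. Msrb3, a methionine sulfoxide reductase, was higher by 0.72 and lost the call without tumor 3 (0.45). The 5 genes listed with the superoxide dismutases and catalase (Sod1, Sod2, Sod3, Cat and Ccs, the copper chaperone of SOD1) had log2 fold changes below 0, as did 7774 of the 14855 genes tested, and none was called. The most abundant, Sod3 and Sod1, were at -0.02 and -0.22.

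Selenoh, 1 of 16 genes tested for selenoproteins and selenium supply, was lower (-1.24) and lost the call without tumor 1 or tumor 2. Alas1, the first enzyme of heme synthesis in most tissues, was lower (-0.69), and its call was also lost without either of these tumors. Of the 8 oxidase genes tested, Duox1 was lower (log2 fold change -1.93, adjusted p = 0.00148 by limma-voom with the block) and Cyba, the membrane subunit of NADPH oxidases, was higher (0.74), with the call of Cyba lost without tumor 1 or tumor 2. The call of 7 (Duox1, Ephx1, Mafk, Sesn2, Slc48a1, Txn1 and Ugdh) was also made by edgeR and DESeq2 with the block and without each tumor in turn, and that of the other 8 was not made in at least 1 of these 5 alternatives.

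**Figure D5:**
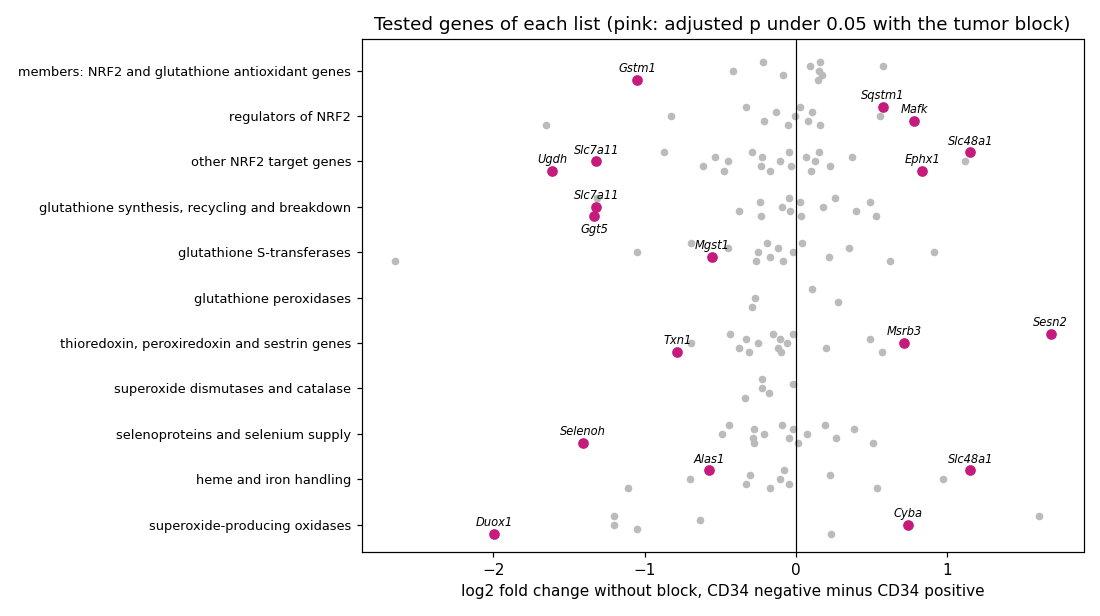
Log2 fold change (CD34 negative minus CD34 positive, limma-voom without the block) of the 10 genes (top row) and of the tested genes of each further list, with named pink points for genes called with the tumor block and grey points for the others. The called genes lie on both sides of 0, from Duox1 at -1.99 to Sesn2 at 1.69.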

How the data were processed

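Cells were sorted by flow cytometry, and at least 10 ng of total RNA per sample went into TruSeq RNA v2 libraries, while polyA RNA is the molecule named in the labels. Reads were aligned to GRCm38 (mm10) and assigned to NCBI genes with Rsubread (featureCounts in the submitters' processing notes). The authors deposited raw counts, with libraries kept apart. The strand setting was not given in the sources used here. Library totals and the number of tumors (3) limit the precision of each value.

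The groups and tumor numbers came from the sample titles. Genes were filtered with filterByExpr (minimum count 10), scaled by TMM and compared with voom and limma, the steps named in the study's methods. Tests were two-sided, with Benjamini-Hochberg over all tested genes and a threshold of 0.05. The study's methods state no tumor term, and the main fit had none. That fit called 3 genes higher in CD34 negative CAFs, fewer than the study's overlap of such genes with a further list. The main fit at this threshold therefore did not give the study's list of such genes. With the tumor block 642 genes were called higher, and whether the study used such a block is not known. CPM were scaled by library size and TMM factor, and summed CPM of markers by library total. Of 27179 genes, 6787 had no reads at all. The 1310 genes that lack a symbol took 0.457% to 0.619% of the counts of a library and were kept. Both fractions of a tumor share its number, and the departures of paired libraries from their group means were correlated over genes (r = 0.373, 0.350 and 0.219 for tumors 1, 2 and 3), so the number pairs the libraries. No libraries were near-duplicates.

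The 10 genes and the further lists were chosen with earlier results of these data known. Genes were named by rule: all 10; in each further list those with an adjusted p under 0.05 with or without the block, and otherwise the 2 most abundant; genes overlapping a member; Cd34; and the 5 genes correlating most with the member of smallest p, among genes averaging 3 or more on the log2 CPM scale. Alternatives were the tumor block, edgeR, DESeq2, other scaling and filters, sample quality weights, summing the Gstm genes, and leaving out each library or tumor; calls among the further lists under each alternative, and the Gstm sum with the block, were added after seeing the data. Positions and upstream sequences came from RefSeq (GRCm38.p6), and the 50-base words from GENCODE M21 transcripts. The script was tested on simulated data. R 4.3.3, limma 3.58.1, edgeR 4.0.16 and DESeq2 1.42.0 were used.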

Additional observations from a re-analysis of the deposited data

How the results depend on the processing

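The direction of Nfe2l2, Gpx3, Gstm1 and Srxn1 was kept under all 24 alternatives run for each. Where the Gstm genes were summed, the value is that of the sum and not of Gstm1 itself. With the replicate block (both fractions of a tumor paired), limma-voom called 1273 genes in all against 18 without it, 1 against 0 of the 10 genes and 15 against 0 of the genes of the further lists. The corresponding counts were 575, 1 and 8 by edgeR with the block, 698, 1 and 8 by DESeq2, 1733, 1 and 22 by DESeq2 with the block, and 161, 1 and 2 with sample quality weights. edgeR without the block called 9 genes in all, and scaling by the library total alone 32. With the block and the Gstm genes summed, 1271 genes in all and 15 of the further lists were called. Leaving out libraries or tumors without the block gave 0 to 86 genes in all, 0 of the 10 genes and 0 to 1 of the further lists. With the block and without tumors 1, 2 and 3 in turn, 1134, 851 and 2019 genes were called in all, 2, 1 and 1 of the 10, and 13, 11 and 20 of the further lists. The median of the 10 log2 fold changes ranged from -0.13 to 0.13 over the left-out libraries and tumors, and was -0.15 with the block and without tumor 3. Small log2 fold changes turned sign when libraries or tumors were left out without the block: Nqo1 ranged from -0.30 to 0.50, Hmox1 from -0.085 to 0.49, Gstm2 from -0.36 to 0.059, Txnrd1 from -0.12 to 0.28, Gclc from -0.063 to 0.36 and Gclm from -0.016 to 0.28. With the block, Nqo1 was at -0.21 and Gclc at -0.098 without tumor 3, Hmox1 at -0.089 and Gstm2 at 0.0020 without tumor 1, and Gstm2 at 0.062 without tumor 2. With sample quality weights Nqo1 was at -5.86e-06 and Gclc at -0.0064. The causes were not tested. With 3 tumors, the block leaves 2 residual degrees of freedom per gene before the spread is shared over genes. A fit that leaves a tumor out rests on 2 tumors, and with the block it has fewer residual degrees of freedom still.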

Other observations

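The genes whose log2 CPM followed Gstm1 most closely over the 6 libraries, among 8944 candidates, were mostly genes of the ribosome. They were Gm10029 (Pearson r = 0.994), Rpl35 (0.993), Rps3a1 (0.992), Rpl27a (0.992) and Rpl10a (0.992), of which the Rpl and Rps genes encode ribosomal proteins. All 5 had log2 fold changes below 0, from -1.12 for Rpl27a to -0.46 for Rpl10a. The 6 points fall into the groups compared and share their libraries, so the values describe likeness only.

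The level of Gclc relative to Gclm per length was highest in both fractions of tumor 1, while tumors 2 and 3 overlapped, and no test was run. It was 1.00 in CD34 negative and 1.07 in CD34 positive CAFs of tumor 1, 0.635 and 0.716 in tumor 2, and 0.712 and 0.695 in tumor 3. The size of these values, though not their order, rests on the Gclm length of 1470 bases.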
